A study of Mus musculus with 2 samples.

Results

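The proteasome genes were the 49 of 20722 protein-coding genes on chromosomes 1 to 19 whose symbol is Psma, Psmb, Psmc, Psmd, Psme, Psmf or Psmg followed by a digit. The rule takes in 2 symbols that run on past the digits, Psme2b and Psmc3ip. Psmc3ip encodes the meiotic recombination factor Hop2, is named for binding Psmc3 and is not a subunit. Psmd10, an assembly chaperone gene on chromosome X, falls outside the rule. Open chromatin was measured by ATAC-seq, in which a transposase cuts and tags DNA that nucleosomes leave exposed, in primary T cells of C57BL/6NJ mice. There were 2 libraries, biological replicates 1 and 2, in 1 group with no treated or control arm. The labels point to a protocol for CD4+ T cell differentiation, and the deposited peak names carry the words Th0 and 72hrs, which no source used here explains. Both libraries share a donor record, sex was not collected and age and stage are unknown, so it is not known whether they came from separate animals. The differences between libraries may therefore be technical. Promoters of 8 of 8 T cell markers, among them Cd3e, Cd4 and Lck, had a region in both libraries, against 66.5% of all protein-coding genes. So did 1 of 3 myeloid markers (Cd14), 0 of 3 B cell markers and 0 of 2 hepatocyte markers. The peak lists held 78104 regions in replicate 1 and 74733 in replicate 2.

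The proteasome is the protease that degrades ubiquitin-tagged proteins in the cytosol and nucleus. Its 20S core is a barrel of alpha rings, which gate the entrance, and beta rings, which hold the catalytic sites, and the 19S cap unfolds the substrate with a ring of ATPases. In lymphocytes and in cells exposed to interferon-gamma, the inducible catalytic subunits Psmb8, Psmb9 and Psmb10 take the places of Psmb5, Psmb6 and Psmb7 to form the immunoproteasome. It yields peptides suited to MHC class I, and the Tap1 and Tap2 transporters carry those peptides into the endoplasmic reticulum.

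Promoters of Psmb8, Psmb10, Psmb5, Psmb6 and Psmc6 are printed because the results below turn on how the inducible subunits differ from the constitutive ones and on the sequences at their summits. Each run is the 250 bases before the first annotated coding start, read 5′ to 3′ on the gene's strand from the RefSeq assembly GRCm38.p6, which has mm10 coordinates. Psmb8 is at chr17:34197471-34197720 (plus strand), Psmb10 at chr8:105938445-105938694 (minus), Psmb5 at chr14:54618023-54618272 (minus), Psmb6 at chr11:70525136-70525385 (plus) and Psmc6 at chr14:45329538-45329787 (plus). The 200 bases at the replicate 1 summit of the Psmb10 region, inside the gene at chr8:105936962-105937161, are shown as well on the minus strand. Capitals mark matches to any of 12 consensus sequences, which are spelled out with their shares below.
Psmb8: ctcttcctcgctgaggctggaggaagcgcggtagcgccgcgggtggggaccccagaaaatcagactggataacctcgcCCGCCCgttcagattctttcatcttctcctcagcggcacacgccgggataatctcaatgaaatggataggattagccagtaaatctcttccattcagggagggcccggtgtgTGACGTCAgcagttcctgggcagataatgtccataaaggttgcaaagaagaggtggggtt
Psmb10: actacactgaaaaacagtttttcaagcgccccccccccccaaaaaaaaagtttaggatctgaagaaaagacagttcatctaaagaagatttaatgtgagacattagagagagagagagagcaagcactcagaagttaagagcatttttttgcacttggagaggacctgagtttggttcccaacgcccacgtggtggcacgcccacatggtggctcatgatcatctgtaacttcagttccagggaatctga
Psmb10 summit: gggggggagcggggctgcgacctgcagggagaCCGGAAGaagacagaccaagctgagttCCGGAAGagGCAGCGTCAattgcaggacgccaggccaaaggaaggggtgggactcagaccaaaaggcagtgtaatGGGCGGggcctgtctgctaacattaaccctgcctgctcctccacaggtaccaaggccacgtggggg
Psmb5: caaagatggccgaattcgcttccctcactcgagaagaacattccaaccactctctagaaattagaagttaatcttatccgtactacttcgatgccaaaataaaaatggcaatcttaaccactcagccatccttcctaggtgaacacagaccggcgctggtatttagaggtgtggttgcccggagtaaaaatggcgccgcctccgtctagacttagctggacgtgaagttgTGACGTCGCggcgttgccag
Psmb6: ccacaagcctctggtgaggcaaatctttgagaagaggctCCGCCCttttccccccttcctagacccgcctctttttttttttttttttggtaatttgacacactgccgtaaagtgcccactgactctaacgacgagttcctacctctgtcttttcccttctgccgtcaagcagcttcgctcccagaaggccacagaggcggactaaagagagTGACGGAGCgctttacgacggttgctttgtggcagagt
Psmc6: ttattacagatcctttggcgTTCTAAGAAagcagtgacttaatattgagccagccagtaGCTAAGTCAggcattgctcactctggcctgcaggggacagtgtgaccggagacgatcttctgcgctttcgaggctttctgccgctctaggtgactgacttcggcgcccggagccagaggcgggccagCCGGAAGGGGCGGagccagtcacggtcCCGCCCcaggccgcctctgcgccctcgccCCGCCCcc
The Psmb8 run holds a GC box on the opposite strand and the cAMP response element TGACGTCA, 60 to 53 bases before the start. The Psmb5 run holds TGACGTCGC 20 to 12 bases before the start, and the Psmb6 run holds TGACGGAGC 38 to 30 bases before it, both matches to the antioxidant response element. Psmc6, a subunit of the ATPase ring, has CCGGAAG, an ETS site, directly followed by a GC box. The run before the Psmb10 start holds no match, whereas the run at the Psmb10 summit holds 2 ETS sites, 1 antioxidant response element and 1 GC box. A match is a description of letters and not evidence that a factor binds.

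Nearly all proteasome genes had an open promoter in these T cells. A promoter was called accessible when each library had a peak region within 1000 bp of a start of a protein-coding transcript of the gene. This held for 46 of 49 proteasome genes (93.9%), against 66.5% of all protein-coding genes. In each library alone the proteasome count was again 46, against 67.5% of all genes in replicate 1 and 67.2% in replicate 2. Ribosomal protein genes, another set used by nearly every cell, were accessible in 72 of 72 cases for the cytosolic ribosome and in 75 of 75 for the mitochondrial ribosome. The exceptions among the proteasome genes were Psma8, the germ cell alpha subunit, Psmb11, the catalytic subunit of thymic cortical epithelium, and Psme2b. The region lay over an annotated start in both libraries for 46 of 49 proteasome genes, against 60.5% of all genes. As a share of the accessible promoters this was 46 of 46, against 91.0%. Psmb11 starts close to Psmb5, with 3411 bp between their starts, and the Psmb5 region did not reach it.

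The proteasome promoters were also stronger than the usual accessible promoter. The authors' signal value, read here as a fold over the local background, came to a median of 14.0 in replicate 1 and 13.4 in replicate 2 for proteasome promoters. The medians over all accessible promoters were 11.4 and 10.8, with the middle 50% from 8.16 to 14.1 in replicate 1 and from 7.85 to 13.4 in replicate 2. A signal above the median accessible promoter in both libraries was found for 31 of 49 proteasome genes (63.3%), against 31.2% of all genes. Among accessible promoters alone the shares were 67.4%, against 46.9%. For a signal of at least 10 in both libraries, a mark chosen after the values were seen, the counts were 35 of 49 (71.4%), against 37.3% of all genes. The proteasome promoters therefore lay near those of the mitochondrial ribosome, with medians of 13.5 and 12.8, and above those of the cytosolic ribosome, with medians of 9.00 and 8.67. These are descriptions of 2 libraries without a test, because genes of a single library are not replicates. In bulk data a weaker opening in every cell and an opening in fewer cells cannot be told apart.

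**Figure D1:**
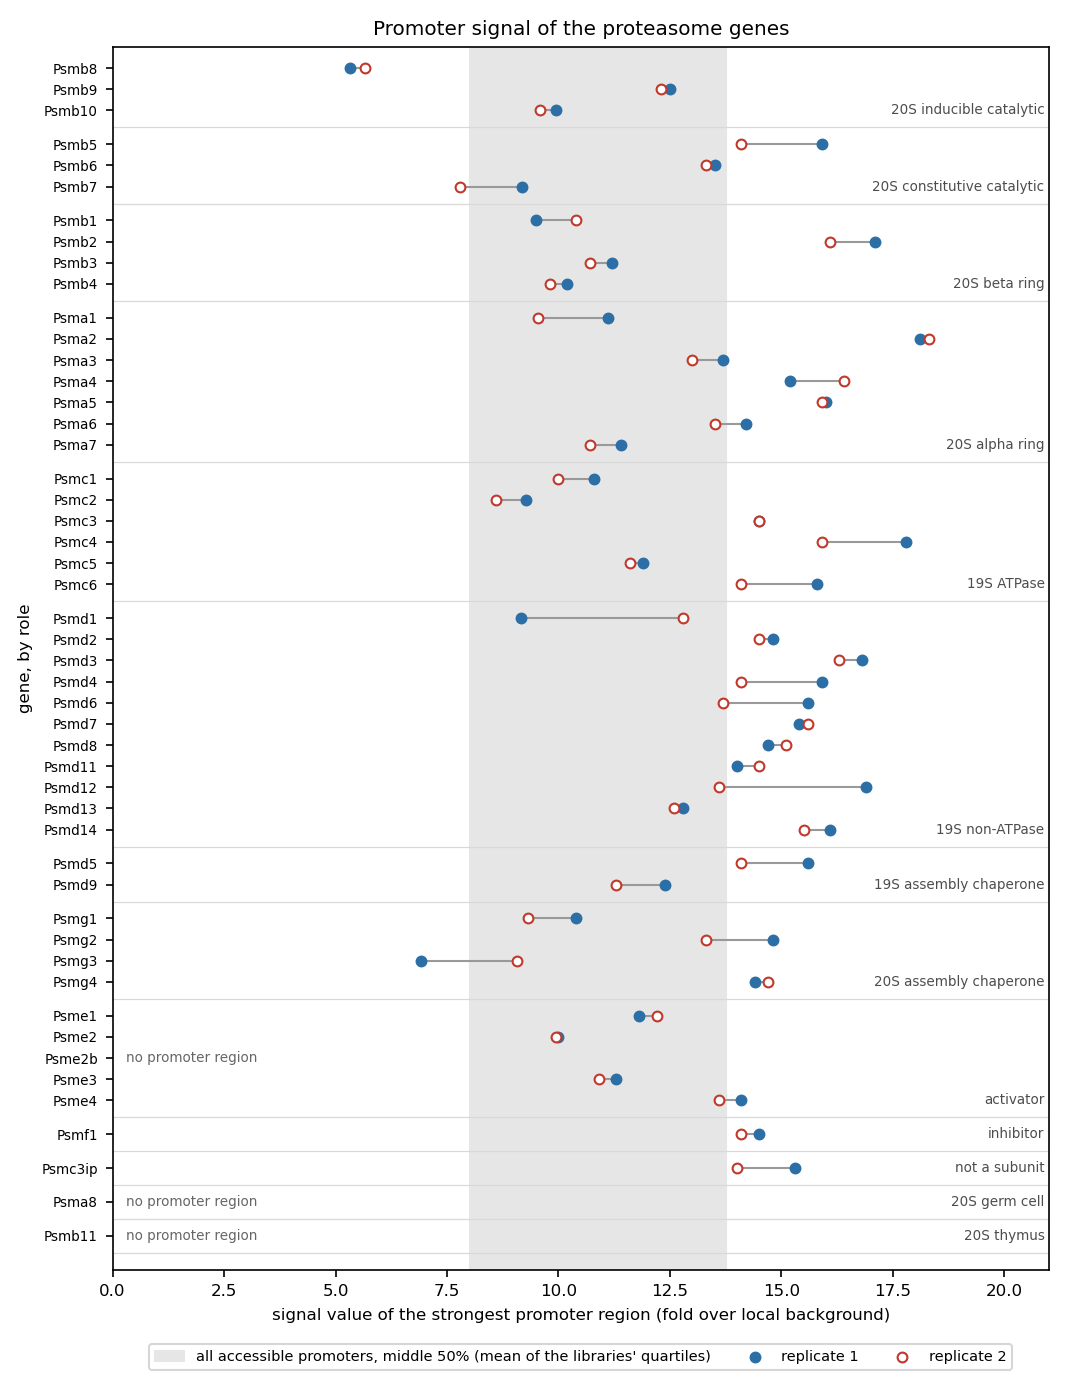
Signal value of the strongest promoter region of each proteasome gene (fold over local background, x axis), grouped by role, with replicate 1 as filled points and replicate 2 as open points joined by a line; the grey band spans the middle 50% of all accessible promoters. Psma2 has the highest signal, 18.1 and 18.3, and Psmb8 the lowest, 5.32 and 5.67, while Psma8, Psmb11 and Psme2b have no promoter region.

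The alpha ring genes, which encode the gate of the core, had a median signal of 14.2 in replicate 1 and 13.5 in replicate 2. Psma2 was the highest of all proteasome genes, at 18.1 in replicate 1 and 18.3 in replicate 2 (18.2 ± 0.109, mean ± SD, n = 2). Psma1 was the lowest alpha gene, at 11.1 and 9.55. The other alpha genes, Psma3, Psma4, Psma5, Psma6 and Psma7, lay from 11.4 to 16.0 in replicate 1 and from 10.7 to 16.4 in replicate 2. Among the non-catalytic beta genes, Psmb2 stood apart with 17.1 and 16.1. Psmb1 (9.49 and 10.4), Psmb3 (11.2 and 10.7) and Psmb4 (10.2 and 9.82) were all below it in both libraries, with Psmb1 and Psmb4 changing order between libraries.

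The ATPase genes of the 19S cap, whose products thread the unfolded substrate into the core, had medians of 13.2 and 12.8. Psmc4 was highest with 17.8 and 15.9, and Psmc2 lowest with 9.27 and 8.59. Psmc1, Psmc3, Psmc5 and Psmc6 lay between them, from 10.8 to 15.8 in replicate 1 and up to 14.5 in replicate 2. The 11 non-ATPase cap genes had the highest median of the groups with at least 3 genes, 15.4 in replicate 1 and 14.5 in replicate 2. They include the scaffold Psmd2, the ubiquitin receptor Psmd4 and the deubiquitinase Psmd14. The highest was Psmd12 in replicate 1, at 16.9, and Psmd3 in replicate 2, at 16.3. Psmd1, a second large scaffold subunit, was lowest in replicate 1, at 9.15, but reached 12.8 in replicate 2, close to Psmd13 with 12.8 and 12.6. Psmd2, Psmd4, Psmd6, Psmd7, Psmd8, Psmd11 and Psmd14 lay from 14.0 to 16.1 in replicate 1 and from 13.7 to 15.6 in replicate 2.

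The assembly chaperones, which help build the complex and leave it, varied more. Psmd5 had 15.6 and 14.1 and Psmd9 had 12.4 and 11.3, both for the cap. Of the core chaperones, Psmg2 had 14.8 and 13.3, Psmg4 had 14.4 and 14.7, and Psmg1 had 10.4 and 9.31. Psmg3 had the lowest signal of any proteasome gene but Psmb8 in replicate 1, at 6.92, with 9.08 in replicate 2. Among the activators, the nuclear caps Psme4 (14.1 and 13.6) and Psme3 (11.3 and 10.9) bracketed Psme1, a subunit of the interferon-inducible PA28 cap, with 11.8 and 12.2. Its partner Psme2 had the lowest signal of the activators, 9.98 and 9.94. Psmf1, which encodes the PI31 inhibitor, had 14.5 and 14.1, and Psmc3ip had 15.3 and 14.0.

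The libraries gave the proteasome genes nearly the same values. The log2 ratio of replicate 1 over replicate 2 had a median of 0.05 with an SD of 0.14 over the 46 accessible proteasome promoters, against a median of 0.06 and an SD of 0.16 over all accessible promoters. Replicate 1 was the higher in 34 of the 46 (73.9%), against 71.8% of all accessible promoters, so the offset is shared by the whole list. Across these genes the log2 signals of the libraries had a Pearson correlation of 0.925 and a Spearman correlation of 0.891, against 0.967 and 0.971 across all 13773 accessible promoters. These points share their libraries and are not independent. The genes that differed most were Psmd1, with a log2 ratio of -0.49 and summits 223 bp upstream of a start in replicate 1 and 44 bp downstream in replicate 2, then Psmg3 with -0.39 and Psmd12 with 0.32.

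Taken by their medians, Psmb8, Psmb9 and Psmb10 had weaker and wider promoter regions than the other proteasome genes. Their median signal was 9.95 in replicate 1, against 14.2 for the 43 other accessible proteasome genes, a difference of -4.22. In replicate 2 it was 9.58 against 13.6, a difference of -4.01. Their median width was 1814 bp against 1238 bp in replicate 1 and 1738 bp against 1144 bp in replicate 2. The median of the deposited −log10 q was 174 against 212 in replicate 1 and 120 against 153 in replicate 2. With 3 genes, the median signal is simply that of Psmb10. The 3 genes also differed from each other, so each was set beside the constitutive subunit it replaces.

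Psmb8, the inducible chymotrypsin-like subunit, had a signal of 5.32 in replicate 1 and 5.67 in replicate 2 (5.50 ± 0.249, SD, n = 2), against 15.9 and 14.1 for Psmb5 (15.0 ± 1.23). Psmb8 was below every other proteasome promoter in both libraries, and the difference from Psmb5, -10.6 and -8.46, exceeded the spread between libraries. Its region was the widest of the proteasome genes, 2187 and 2199 bp, against 1103 and 1108 bp for Psmb5. Among all accessible promoters the Psmb8 signal stood at the 9.58th and 11.6th percentile and its width at the 94.4th and 94.8th. The sequences of both promoters, printed above, lay wholly inside their regions.

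Psmb9 and Psmb10 had higher signals than Psmb8, but Psmb10 was still rank 40 of 46 from the highest in both libraries. Psmb9, which replaces the caspase-like Psmb6, had 12.5 and 12.3 (12.4 ± 0.116, SD, n = 2), against 13.5 and 13.3 for Psmb6 (13.4 ± 0.101). The difference, -0.975 and -0.996, was small beside the range of the proteasome genes but larger than the spread between libraries. Psmb10, which replaces the trypsin-like Psmb7, had 9.95 and 9.58 (9.77 ± 0.260), against 9.18 and 7.79 for Psmb7 (8.49 ± 0.984). Psmb10 was thus the higher of its pair in both libraries, by 0.768 and 1.79. The replicate 1 difference was smaller than the SD of Psmb7 between libraries, 0.984. Of signal, width and −log10 q, only width went the same way in all 3 pairs. Psmb9 spanned 1683 and 1707 bp, against 822 and 1127 bp for Psmb6, and Psmb10 spanned 1814 and 1738 bp, against 926 and 800 bp for Psmb7. By −log10 q, Psmb8 was below Psmb5 (97.5 and 81.6, against 186 and 111). Psmb9 was above Psmb6 (348 and 250, against 148 and 116), and Psmb10 was above Psmb7 (174 and 120, against 79.7 and 48.1).

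**Figure D2:**
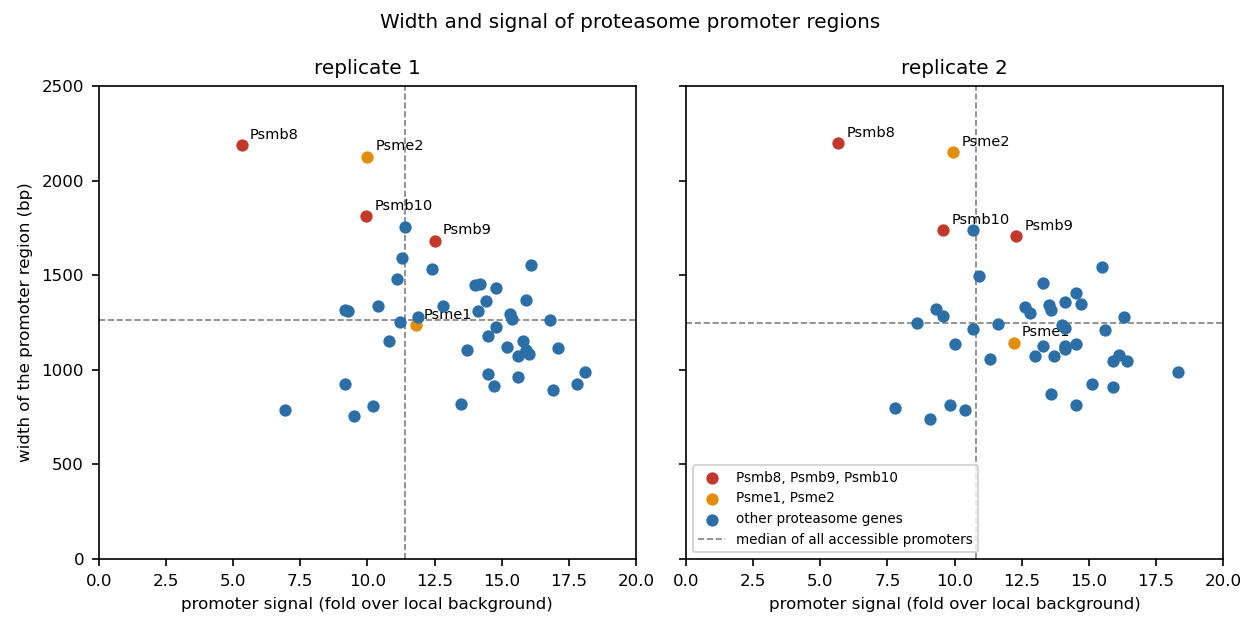
Width of the promoter region in bp (y axis) against its signal in fold over local background (x axis) for the 46 accessible proteasome genes, 1 panel per library; red points are Psmb8, Psmb9 and Psmb10, orange points Psme1 and Psme2, blue points the other genes, and dashed lines the medians of all accessible promoters. Psmb8, at 2187 and 2199 bp, and Psme2, at 2127 and 2152 bp, are the widest, with Psmb8 at the left edge in both panels.

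Wide regions were otherwise uncommon among the proteasome genes. A region of at least 1500 bp in both libraries, a mark chosen after the values were seen, was found for 6 of 49 (12.2%), against 16.8% of all genes. The 6 were Psmb8, Psmb9, Psmb10, Psme2, Psma7 and Psmd14, so 3 of the 6 were the inducible subunits. The median width of the accessible proteasome promoters, 1259 bp in replicate 1 and 1214 bp in replicate 2, was close to the 1263 and 1248 bp of all accessible promoters. Psme2 had the highest −log10 q of the proteasome genes, 507 and 376, with a signal, 9.98 and 9.94, below the median of all accessible promoters. The median −log10 q was 212 and 151 for the proteasome genes, against 177 and 123 for all accessible promoters.

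Base composition did not set the proteasome promoters apart as a group. The 300 bp around the summit had a median GC content of 62.8%, against 64.7% over all accessible promoters, and a median CpG observed-to-expected ratio of 0.825, against 0.808. Within the proteasome genes the inducible subunits were among the poorest in CpG. Psmd3 (0.51) and Psmd4 (0.55) had the lowest ratios, followed by Psmb10 (0.57) and Psmb9 (0.58), and Psmb8 (0.64) was rank 7 of 46 from the lowest. Summits of proteasome promoters were close to a coding start, at a median of 54.0 bp in replicate 1 and 53.5 bp in replicate 2, against 83.0 and 84.0 bp over all accessible promoters. Ribosomal protein genes were alike, at 55.5 and 56.0 bp for the cytosolic and 56.0 bp in both libraries for the mitochondrial ribosome.

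Psmb9 and Psmb8 sit in the class II part of the MHC on chromosome 17, interleaved with the peptide transporter genes Tap1 and Tap2. The Psmb9 region, chr17:34186652-34188334 in replicate 1 and chr17:34186642-34188348 in replicate 2, also covered a start of Tap1, which is transcribed the other way. Their nearest starts were 38 bp apart, and the summit fell at the same base in both libraries, 34187439. Psmb9 and Tap1 therefore share 1 value, 12.5 and 12.3, and their parts in it cannot be told apart. The Psmb8 region, chr17:34196591-34198777 in replicate 1, covered starts of Psmb8 and of no other protein-coding gene. Tap2, the other transporter gene, had a low signal like Psmb8, 5.91 and 5.74.

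Psmb10 on chromosome 8 differed in where its region peaked. The region, chr8:105936677-105938490 in replicate 1 and chr8:105936769-105938506 in replicate 2, reached just past the annotated coding start, but its summit lay 1382 bp inside the gene in replicate 1 and 1323 bp in replicate 2. Psmb10 was the only proteasome gene whose summit was over 500 bp from every coding start of the gene in both libraries, 1 of 49 (2.04%), against 6.55% of all genes. Both summits fall in the same intron of the coding transcript. Non-coding transcripts of Psmb10 are annotated to start nearby, 24 bp from the summit in replicate 1 and 83 bp in replicate 2. When these were counted too, 0 of 46 proteasome summits were over 500 bp from a start, against 8.79% of all accessible promoters. Of the 250 bases printed before the Psmb10 coding start, 46 lay in the region in replicate 1 and 62 in replicate 2.

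The PA28 genes lie together on chromosome 14. The Psme1 region was chr14:55577943-55579180 in replicate 1. The Psme2 region, chr14:55590081-55592207, also covered a start of Rnf31, a subunit of the linear ubiquitin ligase, which is transcribed the other way from 595 bp away. The summit lay between both starts, 445 bp upstream of Psme2 in replicate 1 and 358 bp in replicate 2.

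**Figure D3:**
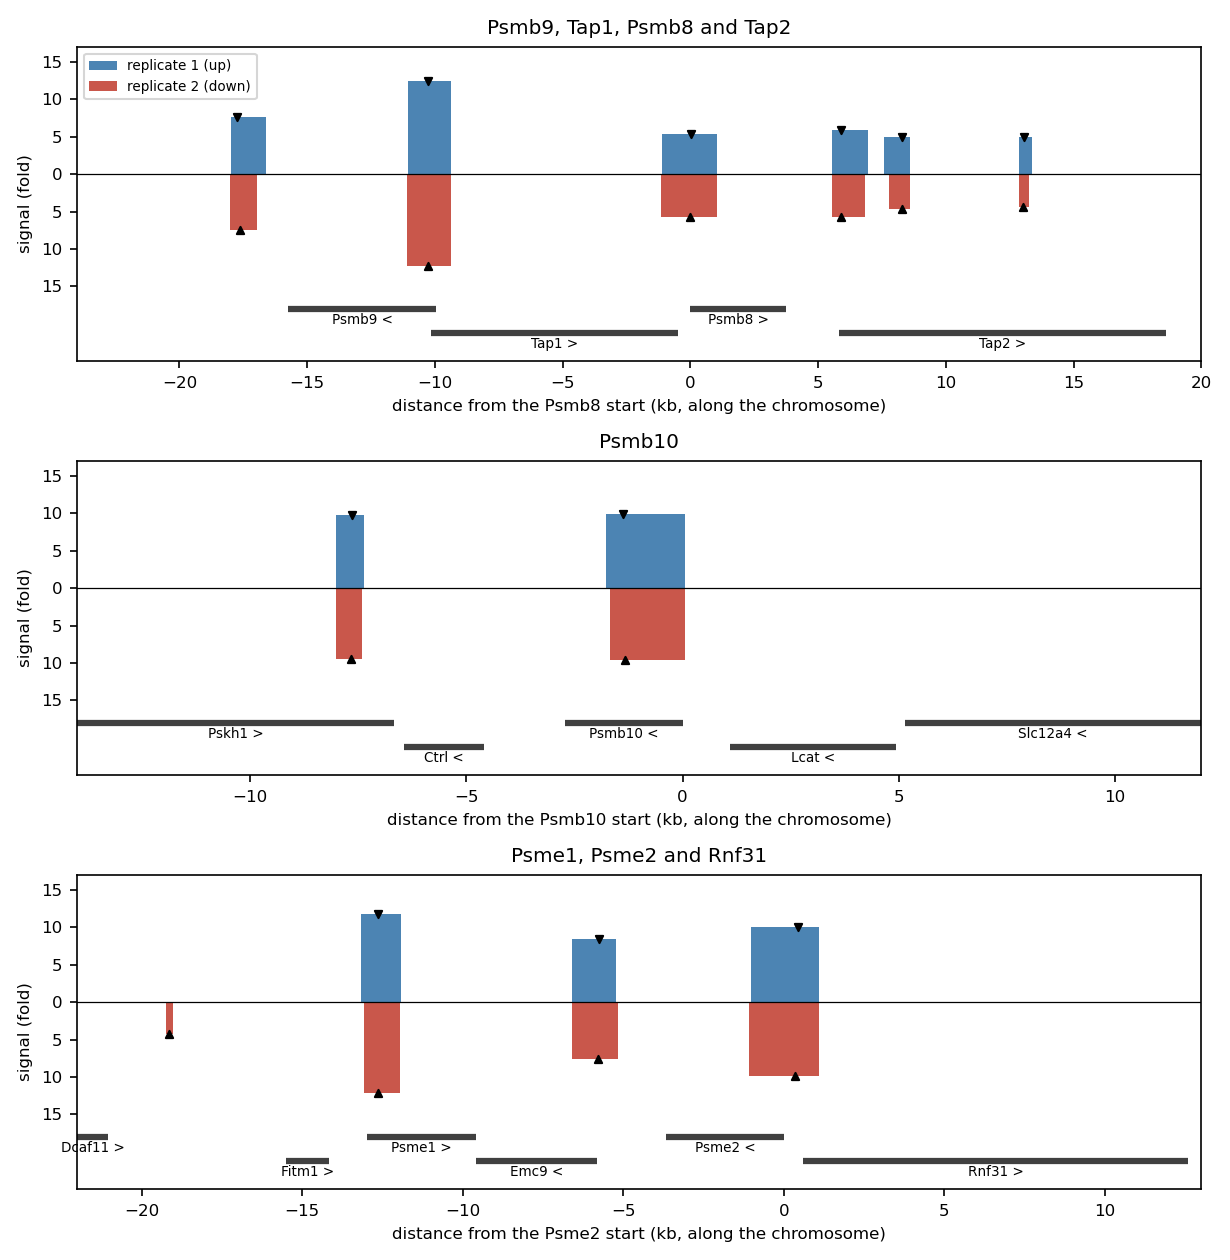
Peak regions at the Psmb9–Tap1–Psmb8–Tap2, Psmb10 and Psme1–Psme2 loci, drawn by distance along the chromosome in kb from the Psmb8, Psmb10 or Psme2 start (x axis); block height is the signal in fold over local background, upward for replicate 1 and downward for replicate 2, with triangles at summits and gene bodies below, where arrowheads give the direction of transcription. The Psmb9 and Tap1 starts share a block of 12.5 and 12.3, the Psmb8 block is low, and the Psmb10 summit stands 1382 and 1323 bp inside the gene.

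Close starts of another gene were annotated for other proteasome genes as well. A start of another protein-coding gene within 1000 bp was annotated for 11 of 49 proteasome genes (22.4%), against 13.1% of all genes. The share was 22.2% for cytosolic and 42.7% for mitochondrial ribosomal protein genes, so it is not particular to the proteasome genes. The neighbour was on the opposite strand in 10 of the 11 (90.9%), close to the 86.9% of all genes with such a neighbour. The closest were Psmc2 with Dnajc2 (32 bp), Psmb9 with Tap1 (38 bp), Psma2 with Mrpl32 (75 bp), Psmc5 with Ftsj3 (75 bp), Psma7 with Ss18l1 (76 bp), Psmd13 with Sirt3 (99 bp), Psma4 with AY074887 (106 bp) and Psmb1 with Tbp (137 bp). Psmg2 with Cep76 (263 bp), Psmg3 with Gm26938 (436 bp) and Psme2 with Rnf31 (595 bp) were farther apart. The strongest proteasome promoter, that of Psma2, is thus also within 1000 bp of the start of a mitochondrial ribosomal protein gene. These distances are between annotated starts. A region covering both starts was looked at directly only for Psmb9 with Tap1 and Psme2 with Rnf31. In both libraries the Psmc2 and Psmc5 regions also extend beyond the neighbour's start, 32 and 75 bp from the only coding start of each. In these pairs the signal cannot be assigned to either gene. In the other pairs, that of Psma2 among them, it may be shared as well.

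Most proteasome summits fell in exons or outside the gene. In replicate 1, 25 of 46 lay in an exon (54.3%, against 42.6% of all accessible promoters), 3 in an intron (6.52%, against 15.3%) and 18 outside the gene (39.1%, against 42.2%). The counts in replicate 2 were 24, 4 and 18. A region within 1000 bp of the annotated 5′ end of the gene was present in both libraries for 42 of 49 proteasome genes, against 63.0% of all genes. The 4 accessible genes that lacked it were open at a coding start farther inside. The replicate 1 summit lay 58.9 kb from that end for Psmd9, 14.6 kb for Psma6, 3.96 kb for Psmd5 and 2.92 kb for Psmf1. The strongest region of Psmb1 also lay away from that end, with its summit 1.40 kb inside the gene, although a second region was within 1000 bp of the end.

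The 300 bp around each summit were searched on both strands for the 12 consensus sequences, chosen from textbook knowledge of proteasome, interferon and housekeeping promoters. They were the antioxidant response element TGACNNNGC, which NFE2L1 and NFE2L2 bind with small Maf partners, the ETS site CCGGAAG, the CCAAT box CCAAT and the GC box GGGCGG. Added to these were NRF1 GCGCNTGCG, YY1 AAGATGGCG, the interferon-stimulated response element GAAANNGAA, the interferon-gamma-activated site (GAS) TTCNNNGAA, NF-kB GGGANTTNC, AP-1 TGANTCA, the cAMP response element TGACGTCA and the TATA box TATAAA. The antioxidant response element, AP-1 and cAMP response sequences can overlap each other. Absence of a match says only that these letters are not in the window.

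The ETS site was the sequence with the largest difference in share between proteasome promoters and all accessible promoters. It was present in 45.7% of 46 proteasome promoters with the summits of either library, against 18.0% of all accessible promoters in replicate 1 and 17.5% in replicate 2. Ribosomal promoters also held it often, at 33.3% and 34.7% for the cytosolic and 40.0% and 38.7% for the mitochondrial ribosome. Within the proteasome it was present at both summits of 8 of 11 non-ATPase cap genes (Psmd2, Psmd4, Psmd6, Psmd7, Psmd11, Psmd12, Psmd13 and Psmd14) and 4 of 6 ATPase genes (Psmc1, Psmc2, Psmc3 and Psmc6). It was found at 3 of 4 accessible activators (Psme2, Psme3 and Psme4), 2 of 4 core chaperones (Psmg1 and Psmg3), 1 of 7 alpha ring genes (Psma6) and 0 of 4 non-catalytic beta genes. Psmb7, Psmb10 and Psmc3ip completed the list. The printed Psmc6 run and the run at the Psmb10 summit show it. The YY1 sequence was found in 10.9%, against 3.38% and 3.46%, at Psmb6, Psmb7, Psmc5, Psmd7 and Psmd11. The ribosomal shares were close to this, at 8.33% in both libraries for the cytosolic ribosome and 10.7% in replicate 1 for the mitochondrial ribosome.

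The antioxidant response element was in 21.7% of proteasome promoters in replicate 1 and 26.1% in replicate 2, against 14.8% and 15.1% of all accessible promoters. The ribosomal shares lay between or near these, at 16.7% and 15.3% for the cytosolic and 17.3% and 21.3% for the mitochondrial ribosome. At both summits it was found at Psma3, Psmb2, Psmb5, Psmb6, Psmb10, Psmc4, Psmc6, Psmd9, Psmg2 and Psme4. Both Psmb5 and Psmb6 are shown above with their matches. The GC box, in 67.4% and 65.2%, and the CCAAT box, in 34.8% and 30.4%, were near their shares over all accessible promoters, 67.0% and 66.6% for the GC box and 35.7% and 35.6% for the CCAAT box. NRF1 was in 15.2% and 17.4%, against 12.7% in both libraries.

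The interferon sequences showed no common pattern between inducible and constitutive subunits in these 300 bp windows. With 3 inducible genes, whose regions are much wider than the window, the division was not tested. The interferon-stimulated response element was in 15.2% of proteasome promoters with either library, against 5.76% and 5.74% of all accessible promoters. Cytosolic ribosomal promoters held it about as often, at 13.9% and 15.3%, and mitochondrial ones at 5.33% and 4.00%. Among proteasome genes it was found at Psmb3, Psmb4, Psmd4, Psmd7, Psmg4, Psmf1 and Psme1, the last a subunit of the interferon-inducible PA28 cap. None of the windows of Psmb8, Psmb9 and Psmb10 held it. The GAS was in 10.9% and 8.70%, against 5.79% and 5.69%, and Psmb8 held it in both windows with the cAMP response element. By group, the GAS was at 1 of the 3 inducible subunits, against 9.30% and 6.98% of the other proteasome genes. Psmb9 held a CCAAT box and a GC box. The NF-kB sequence was in 4.35%, against 4.84% and 4.98%, the AP-1 sequence in 4.35% and 6.52%, against 6.05% and 6.03%, the cAMP response element in 4.35%, against 2.98% and 2.90%, and the TATA box in 6.52% and 4.35%, against 3.82% and 3.88%.

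Windows placed by the annotation and not by the summits were searched as well. In RefSeq promoter windows from 250 bases before to 50 after the start, 41 of 49 proteasome genes were matched by symbol. ETS was in 34.1% of these, against 9.00% of all 31396 windows, NRF1 in 17.1%, against 6.37%, and the antioxidant response element in 14.6%, against 12.5%. The GC box, level at the summits, was in 53.7% of these windows, against 36.0%. The interferon-stimulated response element was in 14.6%, against 8.52%, YY1 in 4.88%, against 1.39%, and NF-kB in 4.88%, against 4.31%. AP-1 (4.88%, against 7.84%) and the CCAAT box (34.1%, against 37.3%) were lower. GAS (7.32%, against 8.35%), the TATA box (9.76%, against 13.6%) and the cAMP response element (0%, against 1.83%) were also lower, the reverse of the summit windows. The Psmb8 window held no cAMP response element, unlike the printed run. The set of all windows includes genes with closed promoters, unlike the summit windows.

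**Figure D4:**
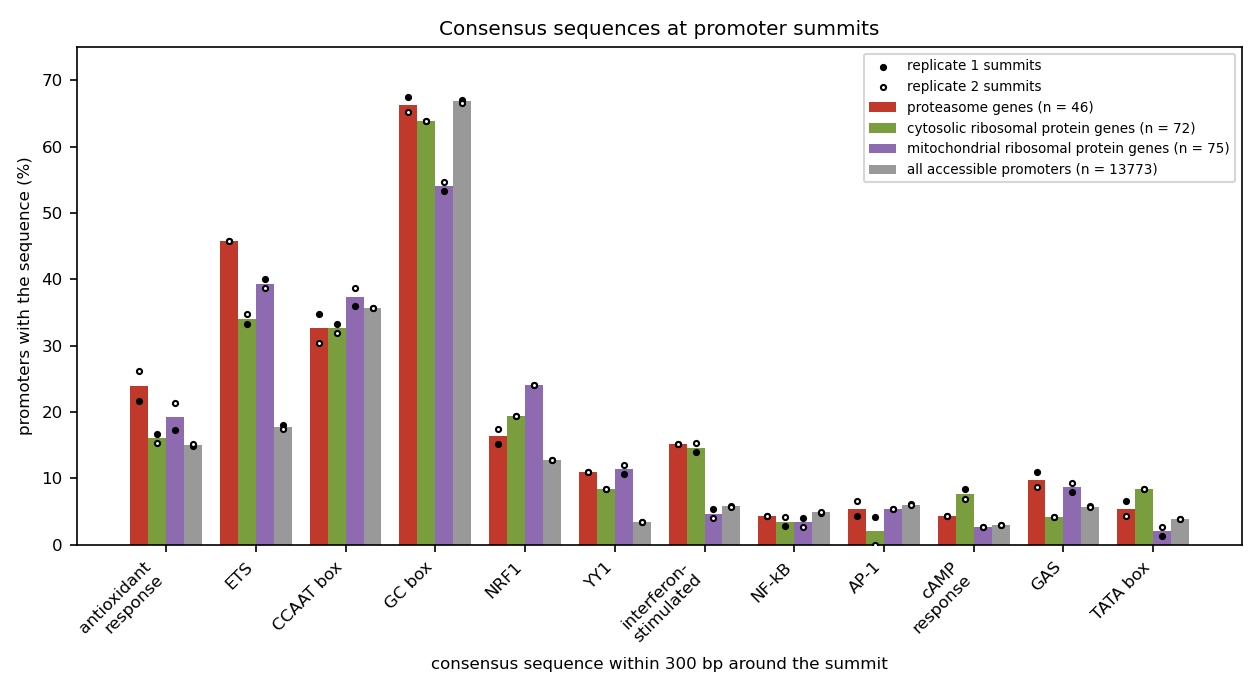
Percent of promoters (y axis) whose 300 bp around the summit hold each of the 12 consensus sequences (x axis) on either strand; bars are the mean of both libraries and points the single libraries, for the 46 proteasome genes in red, 72 cytosolic and 75 mitochondrial ribosomal protein genes in green and purple, and all 13773 accessible promoters in grey. The ETS bar is at 45.7% for proteasome genes, against 18.0% and 17.5% for all accessible promoters, while the GC box is at 67.4% and 65.2% for proteasome genes, against 67.0% and 66.6%.

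Distal regions were regions found in both libraries in the gene body or within 20 kb of it and not within 1000 bp of any coding start. At least 1 was present for 43 of 49 proteasome genes (87.8%), against 73.2% of all genes, and the median number was 2 for both. The share with at least 1 was 93.1% for cytosolic and 81.3% for mitochondrial ribosomal protein genes, so it is not particular to the proteasome genes. Of the proteasome genes, 28 had more than the median of all genes in the same decile of locus length, 9 had as many and 12 had fewer, and 41.9% of all genes were above that median. The 127 counted over the proteasome genes were 124 different regions, 32 of them within a proteasome gene. Their median signal was 6.69 and 6.63, well under that of the promoters. Which gene a distal region acts on was not measured.

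Psmb7, the constitutive trypsin-like subunit, had the most distal regions, 10, against a median of 3 for loci of its length. The strongest, chr2:38609893-38610885 inside the gene, had a signal of 15.6 and 15.0, against 9.18 and 7.79 at the Psmb7 promoter. Psma6, Psmd9, Psmd12 and Psmd14 followed with 6 each. No distal region was found for Psmc4, Psmc6, Psmd5, Psme1, Psme2 and Psme2b. Psma8 and Psmb11, which had no promoter region, had 2 each.

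A distal region stronger than the gene's own promoter in both libraries was found for 7 of 46 accessible proteasome genes (15.2%), against 36.3% of all accessible genes. The 7 were Psma1, Psmb7, Psmc3, Psmd13 and the 3 inducible subunits. The region was chr17:34218261-34219360 for Psmb8, with 14.4 and 13.7, against 5.32 and 5.67 at its promoter. For Psmb9 it was chr17:34170709-34171715, with 14.1 and 12.6, against 12.5 and 12.3. For Psmb10 it was chr8:105919145-105919991, with 14.3 and 12.5, against 9.95 and 9.58, and it lies in the body of Pskh1. Psmb8 had 3 distal regions, Psmb9 had 4 and Psmb10 had 3, against a median of 1 for loci of their length in each case, and Psmb8 and Psmb9 share the region chr17:34179698-34181112, with 7.69 and 7.46.

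Other genes that work with the proteasome were open throughout. Of 12 matched genes for further subunits, maturation factors and cofactors, 12 had a promoter region in both libraries, against 66.5% of all protein-coding genes. Both sets of ribosomal protein genes reached 100%, so full accessibility is not particular to these genes. Median signals of the 12 were 13.2 and 12.3. Pomp, which matures the core particle, had 11.7 and 12.6, and the ubiquitin receptor gene Adrm1 had 14.2 and 13.7. Of 10 matched genes of MHC class I antigen processing, 10 had a region, against the same 66.5%, with medians of 9.82 and 10.4. Beside the inducible subunits, Tap1 shared its region with Psmb9 and Tap2 was low, as given above. B2m, the MHC class I light chain, had a wide region like Psmb8, 2122 and 2157 bp, with a signal of 10.9 and 10.5.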

How the data were processed

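ATAC-seq peak lists of 2 libraries of mouse T cells, 1 group, were analysed. Per the labels, coordinates are on mm10 and each list comes from a single library, so replicates were not pooled. The aligner, peak caller and threshold are not given in the sources used here, nor is the meaning of ASTARR.insert, masked, dedup or sorted, which stand in the peak names. The deposited signal value is a ratio, read from its values as fold over local background. The deposited −log10 q of each peak reached down to 1.02 in replicate 1 and 1.01 in replicate 2. The authors' score is 10 times the −log10 q, limited at 1000, and was not used further. Depth per library is unknown, so a closed promoter and one missed for lack of reads look alike, and no interval can be given.

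After peaks outside the autosomes, X and Y were dropped, 78016 and 74653 were left. Starts were those of protein-coding transcripts in GENCODE mouse release 21. Each gene took its strongest region within 1000 bp of a start, per library. Regions of both libraries overlapping by 1 bp or more were shared. Sequence came from GRCm38.p6. The code was tested on simulated data, with Python 3.11.15, numpy 2.4.6, scipy 1.17.1 and pysam 0.24.0.

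No test was run: there is no second group, and genes are not replicates. The members, gene lists and consensus sequences were chosen with earlier results of these data known. The genes described with values are the inducible subunits and their counterparts and the highest and lowest of each role. Also described are those without a promoter region, those with most distal regions and those with a neighbouring start within 1000 bp. The marks of 10 for signal and 1500 bp for width, the other genes singled out, and the promoters printed were chosen after the values were seen. Alternatives were a stricter −log10 q (5 or more), only the 50000 strongest regions, promoter distances of 500 and 2000 bp, the 5′ end alone, the summit within the distance, flanks of 50 kb or none, stricter overlap, symbols ending in digits and each library alone.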

Additional observations from a re-analysis of the deposited data

How the results depend on the processing

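The count of 46 accessible proteasome promoters held under every alternative run except 3, while the share of all genes ranged from 60.2% with the 50000 strongest regions to 68.5% within 2000 bp, against 66.5% as reported. It was 42 (63.0% of all genes) with the 5′ end of the gene alone, which lost Psma6, Psmd5, Psmd9 and Psmf1, 45 (64.2% of all genes) with the summit required within the distance, which lost Psmb10, and 45 of 47 with symbols ending in digits, which leaves out Psmc3ip and Psme2b. The median promoter signal was 13.9 over both libraries and 13.4 to 14.0 with either library alone, and the median width was 1238 bp and 1214 to 1259 bp. The median signal of Psmb8, Psmb9 and Psmb10 minus that of the other proteasome genes was -4.25. It was again -4.25 with the stricter −log10 q, the 50000 strongest regions, both promoter distances and the 5′ end alone, so these settings did little to test the sign. The difference was -5.05 with the summit required within the distance, which leaves Psmb8 and Psmb9 alone in the group. It was -4.18 with symbols ending in digits and -4.22 to -4.01 with either library alone. The median number of distal regions, 2.00, was 1.00 with the 50000 strongest regions, 5.00 with 50 kb flanks, 0 with the gene body alone and 2 to 3 with either library alone. The medians over all genes were 1.00, 4.00 and 0 with the 50000 strongest regions, 50 kb flanks and gene body alone. By construction these settings change how many regions can be counted. Counts for the 12 consensus sequences stayed within 1.5 times with the summits of replicate 2, an alternative added after seeing the data. No paired analysis was possible because there is only 1 group. With unknown depth and 2 libraries that share a donor record, spread between animals was not measured.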

Other observations

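The genes that regulate the proteasome and those that supply its substrate were open as well. Of 11 matched genes for transcriptional control, 11 had a promoter region in both libraries, against 66.5% of all protein-coding genes. Their median signals were 10.7 and 9.89. Nfe2l1, which encodes the factor that raises proteasome genes when the proteasome is inhibited, had 11.7 and 11.8. Of 7 matched genes for ubiquitin supply and delivery, 7 had a region, against the same 66.5%, with medians of 11.4 and 11.3. Among them Vcp, which encodes a segregase that extracts ubiquitin-tagged proteins, had 13.7 and 12.4. Nfe2l1 and Vcp were singled out after their values were seen.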
